A study of Mus musculus with 4 samples.

Results

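The 10 genes described are 7 genes of the smooth muscle contractile apparatus (Acta2, Tagln, Myh11, Mylk, Myl9, Tpm2 and Cnn1) and 3 genes known as pericyte genes (Rgs5, Kcnj8 and Abcc9). They were taken by name from the 31557 gene symbols of the count table, and all 10 had a row. They were read in wells of sorted cells in which 500 to 6000 genes were detected. The cells were GFP+ cells of the whole dentate gyrus, from both hemispheres of each of 8 male nestin-GFP mice, reporter animals in which the nestin gene's regulatory sequence drives the fluorescent protein. At 2 months of age 4 mice received an infusion into the cerebral ventricle of a miR-132 antagomir, a cholesterol-modified oligonucleotide with locked nucleic acids (2 µl of 0.33 nmol/ml, dissolved in artificial cerebrospinal fluid). The other 4 received a scrambled locked nucleic acid oligonucleotide in the same fluid, at a dose that the sources used here do not state. All 8 were analysed at 3 months of age, so both groups carry the same reporter, surgery and sort, and the sort itself sets which vascular cells could be seen.

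Mural cells wrap the endothelium of blood vessels. Smooth muscle cells form rings on arterioles and carry actin, myosin and their regulators in large amounts, while pericytes lie along capillaries, contain little of that machinery in most capillary beds and are known for genes of potassium channels and G protein control. Contraction follows the phosphorylation of myosin light chains by a calcium-dependent kinase, and ATP-sensitive potassium channels oppose it by holding the membrane potential down.

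After 52 wells were left out, 716 were kept, 84 to 93 for each mouse, with a median of 650777 counts and 2778.5 detected genes per well and 43996495 to 69191485 counts summed per mouse. Wells were clustered without the 10 genes and named from markers that hold none of them. This gave 82 mural-like wells (6 to 14 per mouse), 303 oligodendrocyte-like, 202 radial glia-like (RGL) or astrocyte-like, 87 endothelial-like, 25 neuroblast-like, 12 fibroblast-like and 5 oligodendrocyte precursor-like wells. The mural-like wells had a median of 530922.5 counts and 1978 detected genes. The name was given from 12 mural markers, so their presence describes these wells and is no separate check. At 10 or more counts, Pdgfrb and Higd1b were in 79 of the 82 wells, Vtn in 78 and Notch3 in 74. In that order they were in 11.04%, 0.789%, 2.52% and 1.10% of the other kept wells. The least frequent markers were Art3 (54 of the 82 wells), Anpep (34) and Des (22). At least 3 endothelial markers were found in 5 mural-like wells, at least 3 fibroblast markers in 6, and the endothelial genes Cldn5, Cdh5, Ly6c1 and Kdr in none. A count in this assay is a read and not a molecule. The Wilson intervals below take pooled wells as units and leave out the spread between mice. The intervals of log2 differences come from that spread.

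Pericyte genes were detected in most mural-like wells, whereas the contractile genes ranged from nearly always to rarely detected. Detection means 10 or more counts in a well. Rgs5, a regulator that switches off G protein signals, was detected in 79 of 82 mural-like wells (96.3%, Wilson 95% interval 89.8% to 98.7%). Kcnj8, the pore-forming subunit of a vascular ATP-sensitive potassium channel, was detected in 70 (85.4%), and Abcc9, the sulfonylurea receptor that pairs with that pore, in 64 (78.0%). Among contractile genes only Myl9, a regulatory light chain of myosin, was as common, with 80 wells (97.6%, interval 91.5% to 99.3%). Mylk, the kinase that phosphorylates that light chain, was in 52 wells (63.4%) and Tpm2, a tropomyosin of the thin filament, in 33 (40.2%). The genes most used to mark smooth muscle were less frequent: Myh11, the smooth muscle myosin heavy chain, in 21 wells (25.6%), Acta2, smooth muscle alpha-actin, in 15 (18.3%, interval 11.4% to 28.0%), Tagln, an actin-binding protein also called transgelin, in 11 (13.4%), and Cnn1, calponin, in 3 (3.66%). After thinning each well to 200000 counts, with 8 shallower wells left out and 3 counts taken as detection, the shares ran from 4.05% for Cnn1 to 98.6% for Myl9. The shares of the rarer contractile genes rested in large part on mice 1 and 6. Without those mice, a choice made after the data were seen, Acta2 was in 7.27% of mural-like wells, Tagln in 5.45%, Myh11 in 18.2%, Tpm2 in 29.1% and Cnn1 in 0%.

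**Figure D1:**
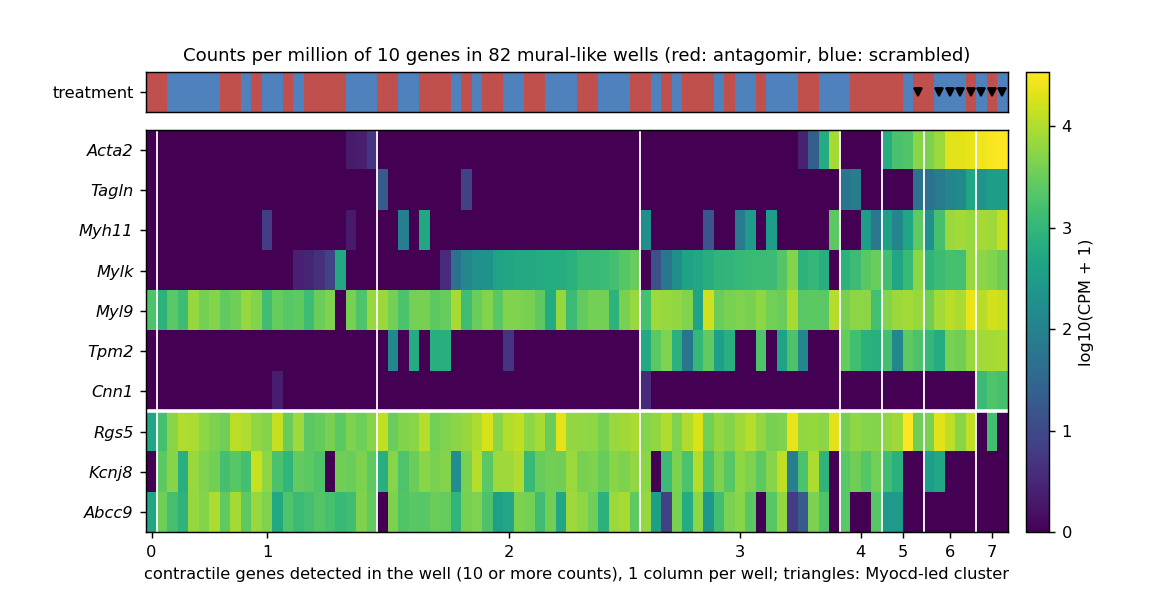
Levels of the 10 genes in the 82 mural-like wells, 1 column per well, as log10(CPM + 1), where CPM are counts scaled to the same total in every well; columns are ordered by the number of contractile genes detected, the strip shows treatment and triangles mark the 8 wells of the Myocd-led cluster. Myl9 and Rgs5 are high in nearly every column, Acta2 and Myh11 are high at the right, and Kcnj8 and Abcc9 are dark there.

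Each member lies at its own place in mouse build GRCm38 by GENCODE M21, apart from Kcnj8 and Abcc9, which are near one another. Acta2 is at chr19:34241090-34255590 on the minus strand, Myh11 at chr16:14194535-14291372 (minus), Mylk at chr16:34745210-35002420 (plus), Myl9 at chr2:156775420-156781658 (plus), Tpm2 at chr4:43514711-43523765 (minus), Tagln at chr9:45929619-45936058 (minus) and Cnn1 at chr9:22099216-22109630 (plus). Rgs5 is at chr1:169655501-169695813 (plus), Kcnj8 at chr6:142564837-142571614 (minus) and Abcc9 at chr6:142587862-142702315 (minus). Tagln shares 62.4% of its exon bases with Gm48529 and 5.43% with Pcsk7, both on the opposite strand. Mylk shares 4.87% with E130310I04Rik and 1.99% with Gm21691, and Abcc9 shares 1.89% with 5330439B14Rik, all opposite. The sources used here do not state the strand setting of the counting, so the counts of Tagln in particular are uncertain. How far this overlap moved them was not tested.

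Contractile genes are known targets of serum response factor, which with its partner myocardin binds the CArG box, a run of 6 A or T bases between CC and GG. The 250 bases before the RefSeq start (GRCm38.p6) were read for 8 members, and those of Acta2 and Myl9 held a match, allowing at most 1 C or G in the core. These sites are shown because the genes that hold them are a rarely and a nearly always detected contractile gene; the match is in capitals, with 10 bases on each side. The motif reads the same way on both strands.
Acta2, 84 bases before the start, chr19:34255438-34255467, minus strand: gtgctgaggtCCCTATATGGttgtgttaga
Acta2, 34 bases before the start, chr19:34255388-34255417, minus strand: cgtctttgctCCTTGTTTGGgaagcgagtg
Myl9, 161 bases before the start, chr2:156775293-156775322, plus strand: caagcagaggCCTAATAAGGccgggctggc
Myl9, 99 bases before the start, chr2:156775355-156775384, plus strand: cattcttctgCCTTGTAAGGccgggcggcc
Only the first Myl9 site had 6 A or T bases in its core, which 1.47% of 32851 promoter windows hold. With 1 C or G allowed, 8.59% hold a match. The windows of Mylk, Tpm2, Cnn1, Rgs5, Kcnj8 and Abcc9 held no such letters. These matches describe sequence only, and binding was not measured. RefSeq starts can differ from the GENCODE ends given above. The Acta2 window (chr19:34255374-34255623) lies partly inside the GENCODE gene, both Acta2 sites lie inside it, and the Mylk window (chr16:34784700-34784949) lies wholly inside its gene. The Tpm2 window (chr4:43523555-43523804) lies mostly inside its gene. Those of Myl9, Cnn1 and Abcc9 lie inside theirs for a smaller part, and both Myl9 sites lie outside.

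Levels between genes were compared per kilobase of annotated exon, on the scale of CPM per kilobase in the summed mural-like wells of each mouse. The median over 8 mice was highest for Myl9 (3776, range 2394 to 5501), followed by Kcnj8 (1531, range 745 to 2363), Rgs5 (1436, range 1157 to 2706) and Abcc9 (311, range 152 to 453). Kcnj8 and Rgs5, neighbours in that order, overlapped in part over mice, whereas the lowest mouse for Myl9 was above the highest for Kcnj8, and the lowest for Rgs5 was above the highest for Abcc9. Myl9 and Rgs5 did overlap, since the highest mouse for Rgs5 (2706) was above the lowest for Myl9 (2394). Acta2 had a median of 123 and a range of 0 to 3320, the widest of the 10. Tpm2 had a median of 119 (16.9 to 691), Mylk 55.02 (34.4 to 125), Myh11 13.1 (0.231 to 338), Tagln 2.43 (0 to 28.1) and Cnn1 0.0274 (0 to 60.0). From Abcc9 downwards, the ranges of neighbours in the order overlapped. Exon length is the union of all annotated transcripts, which is 11263 bases for Mylk, so genes with long minor transcripts sit low on this scale.

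Within the mural-like wells Acta2, Tagln and Cnn1 were mostly found where Myh11 was found too, while Myl9, Mylk and Tpm2 were also found without them. Myl9 alone was the contractile make-up of 20 wells, Mylk with Myl9 of 18, and Mylk, Myl9 and Tpm2 of 12. The number of contractile genes per well was 0 in 1 well, 1 in 21, 2 in 25, 3 in 19, 4 in 4, 5 in 4, 6 in 5 and 7 in 3. Of the 15 wells with Acta2, 13 also held Myh11, 12 Tpm2, 14 Mylk, 15 Myl9 and 8 Tagln. All 3 wells with Cnn1 held each of the other 6 contractile genes. Wells without Acta2 held Myh11 in 11.9%, Tagln in 4.48% and Tpm2 in 31.3%.

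The pericyte genes were found together in most wells. All 3 were in 62 of 82 wells, Rgs5 with Kcnj8 alone in 8, Rgs5 with Abcc9 alone in 2, Rgs5 alone in 7 and none in 3. Every well with Kcnj8 or Abcc9 held Rgs5. The levels of the channel pair ran together, with a Spearman correlation of 0.72 between Kcnj8 and Abcc9 over the 82 wells, while Rgs5 had 0.07 with Kcnj8 and -0.06 with Abcc9. Wells share mice and their depth differs, so these correlations are descriptions.

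The channel genes were found with Myl9, Mylk and Tpm2 in many wells, and less often in the wells with 6 or 7 contractile genes. Kcnj8 was in 69 of the 80 wells with Myl9, 43 of the 52 with Mylk, 24 of the 33 with Tpm2 and 12 of the 21 with Myh11, but in 6 of the 15 with Acta2, 5 of the 11 with Tagln and 0 of the 3 with Cnn1. Of the 66 wells with 0 to 3 contractile genes, Kcnj8 was in 62 (93.9%, Wilson interval 85.4% to 97.6%) and Abcc9 in 60 (90.9%, 81.6% to 95.8%). Of 8 wells with 4 or 5 contractile genes, Kcnj8 was in 6 (75.0%) and Abcc9 in 4 (50%). Of 8 wells with 6 or 7 contractile genes, from mice 1, 3 and 6, Kcnj8 was in 2 (25%, 7.15% to 59.1%) and Abcc9 in 0, for which the Wilson upper limit is 32.4%. Rgs5 was in 65 of 66, 8 of 8 and 6 of 8 of these wells. Median depth was 570319, 436327.5 and 526804 counts, and the median number of detected genes was 1944.5, 1957 and 2750, so the wells with 6 or 7 contractile genes were not the deepest but had the most detected genes. The part of this in the shares was not tested. Without mice 1 and 6, 1 well with 6 or 7 contractile genes was left, which held Kcnj8 and Rgs5 and not Abcc9. The plot of pericyte gene shares by number of contractile genes shows the same values.

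**Figure D2:**
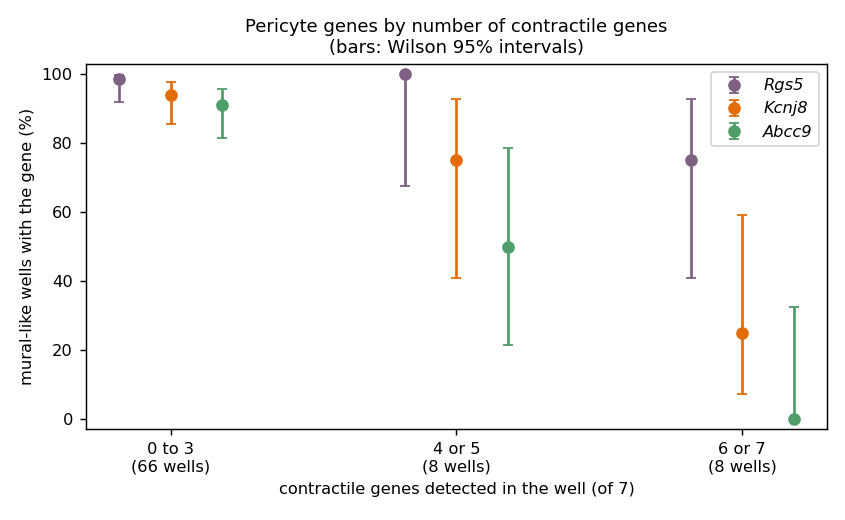
Share of mural-like wells with Rgs5, Kcnj8 and Abcc9 (vertical axis, percent) in wells with 0 to 3, 4 or 5, and 6 or 7 contractile genes; points are pooled shares and bars Wilson 95% intervals. Abcc9 goes from 90.9% to 50% to 0%, and Rgs5 is at 75.0% or more in each.

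Across the 82 wells Acta2 had Spearman correlations of -0.51 with Kcnj8, -0.50 with Abcc9 and -0.03 with Rgs5. Of the 15 wells with Acta2, Kcnj8 was in 6, Abcc9 in 4 and Rgs5 in 13. Of the 67 without, Kcnj8 was in 95.5%, Abcc9 in 89.6% and Rgs5 in 98.5%. Myl9, although found nearly everywhere, also had a lower level where the channel genes were high (-0.47 with Kcnj8 and -0.51 with Abcc9). For Mylk these values were -0.15 and -0.34, and for Tpm2 -0.39 and -0.51. Most of the 82 wells are tied at 0 for Acta2, and CPM within a well sum to a constant, so the sizes of these correlations carry those limits.

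A finer clustering, again made without the 10 genes, divided the mural-like wells into 74 and 8. The 8 were led by Myocd, the coactivator of serum response factor that drives smooth muscle genes, with Acta2, Pdlim3, Cnn1 and Myh11 next. They came from mice 1 (4 wells), 3 (1 well) and 6 (3 wells), and 7 of them are among the 8 wells with 6 or 7 contractile genes. This cluster was singled out after its values were seen, so what follows is a description without a test. Acta2 was at 21557, 22241, 34265 and 27383 CPM in the wells of mouse 1, at 7044 in that of mouse 3 and at 24228, 30366 and 5403 in those of mouse 6. The lowest of these was below the highest of the other 74 wells (8265), where 63 had no Acta2 read at all. Myh11 ranged from 1630 to 12969 CPM in the 8 wells (median 7277), and from 0 to 2464 in the other 74 (median 0), with both ranges overlapping. Kcnj8 was in 1 of the 8 wells, at 509 CPM, and in 69 of the 74, with a median of 3255. Abcc9 had 0 reads in all 8 wells and was in 64 of the 74 (median 2282). Rgs5 was in 6 of the 8, with levels from 1439 to 21676 where detected, and in 73 of the 74.

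**Figure D3:**
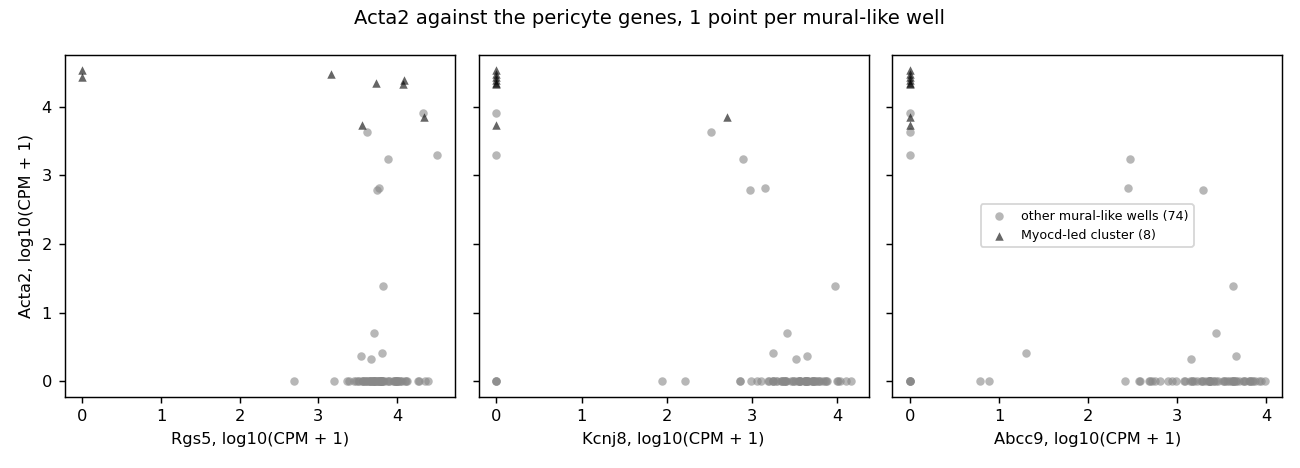
Acta2 (vertical axis) against Rgs5, Kcnj8 and Abcc9 (horizontal axes), each as log10(CPM + 1), 1 point per mural-like well; triangles are the 8 wells of the Myocd-led cluster and circles the other 74. The triangles lie at 0 on the Abcc9 axis, all but 1 at 0 on the Kcnj8 axis, and 6 of 8 in the range of the circles on the Rgs5 axis.

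Of the 12 mural markers, some were found in most of the 8 wells and others in few or none. Notch3, a receptor of smooth muscle and pericytes, was in 8 of 8 and in 66 of 74 wells, and Pdgfrb, the receptor for platelet-derived growth factor B, in 7 and 72, with medians of 671 and 2483 CPM. Higd1b was in 7 and 72 wells, and Ndufa4l2 and Cox4i2 each in 6 of the 8. Anpep was in 0 of 8 and 34 of 74 wells, Atp13a5 in 3 and 68, and Art3 in 3 and 51. Vtn, which encodes vitronectin and is abundant in brain pericytes, was in 4 of 8 wells (median 80.6 CPM) and in 74 of 74 (median 42487). The summed level of the 12 mural markers ranged from 1573 to 27751 CPM in the 8 wells and from 14146 to 96616 in the 74. Of the other types' markers, at least 3 endothelial markers were in 0 of the 8 and 5 of the 74 wells, with summed levels of 2.88 to 2366 and 0 to 7458 CPM. At least 3 fibroblast markers were in 0 and 6, with summed levels of 0 to 1815 and 0 to 8101 CPM.

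On the scale of CPM per kilobase, Acta2 (median 10580) and Myl9 (9792) led in the 8 wells, with Tpm2 at 1902, Rgs5 at 981, Myh11 at 958 and Mylk at 367. Tagln was at 90.7, far below Acta2, and Kcnj8, Abcc9 and Cnn1 had a median of 0. Tagln nevertheless had reads in all 8 wells (47.8 to 463 CPM) and in 5 of the other 74. In the other 74 the order was Myl9 (3286), Rgs5 (1302), Kcnj8 (1278), Abcc9 (273) and Mylk (27.7), and the remaining 5 had a median of 0.

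By Spearman correlation of log2(CPM + 1) over the 82 wells, among 2124 genes detected in at least 20% of them, the gene most like Acta2 was Myh11 (0.66). It was followed by Ptrf (0.50), a caveolar coat protein, Crip1 (0.49), Ppp1r12b (0.48), a regulatory subunit of myosin phosphatase, and Tiprl (0.46). For Rgs5 the 5 highest included Nes (0.35), the filament gene on which the reporter is built, Rps14 (0.31), Gm1821 (0.29) and Dynll1 (0.27). The best match of Rgs5 was thus weaker than the fifth of Acta2.

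Outside the mural-like class the 10 genes were sparse, and 87.2% (Rgs5) to 99.0% (Abcc9) of the kept reads of each gene lay in mural-like wells. Acta2 was in 6 of the 634 other wells, Tagln, Cnn1 and Abcc9 in 2 each, Myh11 in 1, Kcnj8 in 4 and Tpm2 in 8. Myl9 (38 wells), Mylk (22) and Rgs5 (15) were found more often. Myl9 was in 28 of 202 RGL or astrocyte-like wells (13.9%, Wilson interval 9.77% to 19.3%; 13.6% ± 7.42 SD over 8 mice), with a median of 242 CPM where detected against 4020 in mural-like wells. It was also in 5 of 12 fibroblast-like wells, against 3 of 87 endothelial-like and 2 of 303 oligodendrocyte-like wells, whose median depth was the highest of the larger classes (829515 counts, against 558126.5 in RGL or astrocyte-like wells). Rgs5 was in 11 of 87 endothelial-like wells (12.6%, interval 7.21% to 21.2%) at a median of 3638 CPM where detected, and in 0.990% of RGL or astrocyte-like wells. Of the endothelial-like wells 3 held at least 1 gene of each set, and 2 held at least 3 of the 12 mural markers. Of the 12 fibroblast-like wells 9 held at least 3 mural markers, as did 4 of the 38 wells with Myl9 outside the mural-like class, 3 of the 8 with Tpm2 and 3 of the 4 with Kcnj8. The part of these markers in the values was not tested.

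**Figure D4:**
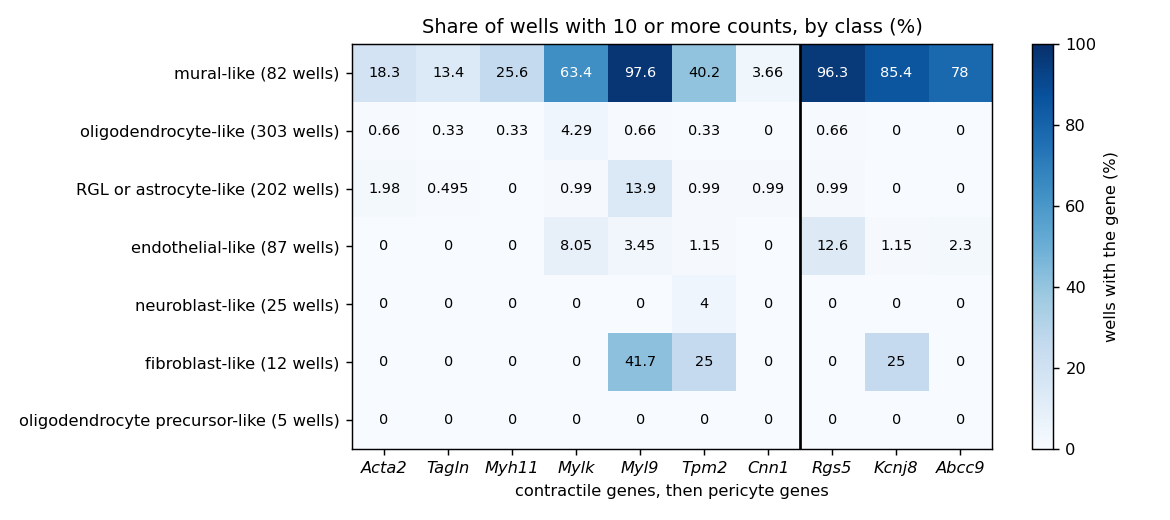
Share of wells of each class with 10 or more counts of each gene, in percent, written in each cell; the line parts the contractile from the pericyte genes. Outside the mural-like row the largest values are Myl9 in fibroblast-like wells (41.7%) and Tpm2 and Kcnj8 there (25% each), followed by Myl9 in RGL or astrocyte-like (13.9%) and Rgs5 in endothelial-like wells (12.6%).

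Mylk was in 7 of 87 endothelial-like wells (8.05%) and 13 of 303 oligodendrocyte-like wells (4.29%), at medians of 108 and 186 CPM where detected. All 13 oligodendrocyte-like wells came from mouse 7 (5 of its 44) and mouse 8 (8 of its 45), which shared sort day 2 and pool L6. The part of day and pool in this was not tested. Kcnj8 was in 3 of 12 fibroblast-like wells, 1 of 87 endothelial-like wells and none of the other classes' wells, for which the Wilson upper limits were 1.87% (RGL or astrocyte-like) and 1.25% (oligodendrocyte-like). Abcc9 was seen outside the mural-like class only in 2 endothelial-like wells, at a median of 1291 CPM. A single oligodendrocyte-like well held 4 contractile genes, with Myh11 at 11023 CPM. Rgs5 was in 2 oligodendrocyte-like wells, with a median of 56331 CPM.

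The comparison of treatments asked whether the antagomir changed these genes, first in all kept wells of a mouse summed. No member differed beyond the spread between mice. In the scrambled mice 1, 3, 5 and 7, Acta2 was at 866, 57.5, 0.4996 and 62.8 CPM, and in the antagomir mice 2, 4, 6 and 8 at 0.664, 12.8, 476 and 0.174 CPM. The groups overlapped, and mouse 1 in the scrambled and mouse 6 in the antagomir group stood far above the others. By edgeR's quasi-likelihood test the log2 difference, antagomir minus scrambled, was -1.06 (SE 2.07, 95% interval -5.68 to 3.55, adjusted p = 1.00), and without mouse 1 it turned to 1.54. Myh11 was at 304, 17.2, 0.396 and 21.9 CPM in the scrambled and 2.25, 47.6, 116 and 0.0694 in the antagomir mice, with a log2 difference of -1.10 (SE 1.78) that turned to 1.596 without mouse 1. For Myl9 the values were 729, 469, 530 and 304 against 209, 347, 1083 and 174 CPM, the highest and the lowest mouse both being antagomir mice (-0.21, SE 0.54). The other tested contractile genes had log2 differences of 0.05 (Tagln, SE 2.24), 0.12 (Mylk, SE 0.58) and -0.06 (Tpm2, SE 1.11). Cnn1 was too low in most mice to be tested, with 19.4 CPM in mouse 1, 12.02 in mouse 6 and at most 0.573 elsewhere.

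The pericyte genes varied less between mice. Rgs5 was at 803, 1387, 629 and 632 CPM in the scrambled and 451, 944, 1574 and 279 in the antagomir mice (log2 difference -0.13, SE 0.48, interval -1.20 to 0.95). Kcnj8 was at 225, 561, 513 and 176 against 234, 403, 367 and 247 CPM (-0.27, SE 0.38), with the scrambled mice both highest and lowest. Abcc9 was at 175, 323, 443 and 153 against 140, 301, 202 and 107 CPM (-0.58, SE 0.40, interval -1.48 to 0.31). The antagomir mice were lower on average for Abcc9, but the groups overlapped. Within each of the 4 pairs of mice that shared sort day and pool, the antagomir mouse had the lower Abcc9 level, and with the pair as a block the log2 difference was -0.54 (edgeR adjusted p = 1.00). The share of all genes that keep their sign over the 4 pairs was not counted. All 9 tested members had an adjusted p of 1.00 by edgeR.

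edgeR called 0 of 15447 genes in all kept wells (0% at an adjusted p of 0.05), so 0 of 9 members is the background share. Without adjustment 280 genes were under a p of 0.05, and 148 of these had a positive difference. DESeq2 called 10 (427 unadjusted) and limma on mean log2 values 0 (873 unadjusted), none of them a member (DESeq2 gave Acta2 no adjusted p). The mice of the 2 treatments did not overlap for 301 genes (1.95%), and for 0 of the 10 members. In these sums fewer mural cells and less RNA per cell cannot be told apart, and so the number of mural-like wells was compared as well. They made up 14.0%, 10.9%, 13.2% and 6.90% of kept wells in the scrambled mice and 7.78%, 14.4%, 15.7% and 8.33% in the antagomir mice. The means were 11.2% ± 3.18 and 11.6% ± 4.10 (SD, n = 4 each; exact two-sided permutation p = 0.886, adjusted over 2 such tests 0.914; the smallest p that 4 against 4 allows is 0.0286).

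Within the mural-like wells summed per mouse, the contractile genes again rested on mice 1 and 6. Acta2 was at 7291, 536, 0.374 and 1023 CPM in the scrambled mice 1, 3, 5 and 7, and at 3.83, 0, 2998 and 0.439 in the antagomir mice 2, 4, 6 and 8. The log2 difference was -1.57 (SE 2.27, interval -6.49 to 3.35), and 0.81 without mouse 1. Myh11 was at 2568, 160, 2.81 and 358 against 37.5, 38.6, 733 and 1.76 CPM (-1.95, SE 1.63). Tpm2 was at 2011, 49.2, 370 and 323 against 96.9, 283, 1495 and 481 CPM (-0.29, SE 1.00), which turned to 0.52 without the wells of the Myocd-led cluster, a choice made after the data were seen. Of the 8 Myocd-led wells, 4 came from mouse 1, 3 from mouse 6 and 1 from mouse 3, so mice 1 and 6, the highest in Acta2, had the most such wells. The order did not hold below them. Mouse 7 had 0 such wells and was above mouse 3 in Acta2. Its 2 wells with Acta2 were at 8265 and 1972 CPM and had 0 reads of Kcnj8 and of Abcc9. Mylk had a difference of 0.21 (SE 0.54), Myl9 -0.22 (SE 0.33) and Tagln -0.36 (SE 2.53).

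Sort day moved with these values. The differences by day and pool are log2 ratios of mean CPM with 1 added to each mean, and not edgeR estimates. Where a mean lies near 0 CPM, the added 1 largely sets their size. On sort day 1 (mice 1 to 4) the Acta2 difference in all kept wells was -5.90 and on day 2 (mice 5 to 8) 2.87, and for Myh11 the values were -2.64 and 2.29. Each day has 2 mice per treatment, with mouse 1 in the first and mouse 6 in the second, and the part of the day in these values was not tested. Within sequencing pools L5 and L6 the Acta2 differences were -0.86 and -3.03. Abcc9 kept its negative sign in both days (-0.17 and -0.94) and both pools (-0.85 and -0.22). These signs follow from the 4 pairs given above, in each of which the antagomir mouse was lower, and add nothing to them. Kcnj8 also had negative signs throughout, with -0.30 and -0.16 by day and -0.30 and -0.18 by pool. The share of all genes that keep their sign over days and pools was not counted. In mural-like wells neither gene kept a negative sign throughout: the Abcc9 difference was 0.23 and -0.66 by day and -0.53 and 0.02 by pool. That of Kcnj8 was 0.13 and 0.24 by day and 0.02 and 0.30 by pool. Acta2 in mural-like wells was at -10.39 and 1.55 by day and -1.28 and -9.32 by pool. The antagomir mice behind the 2 largest values were at 3.83 and 0 CPM (day 1) and at 0 and 0.439 CPM (pool L6).

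**Figure D5:**
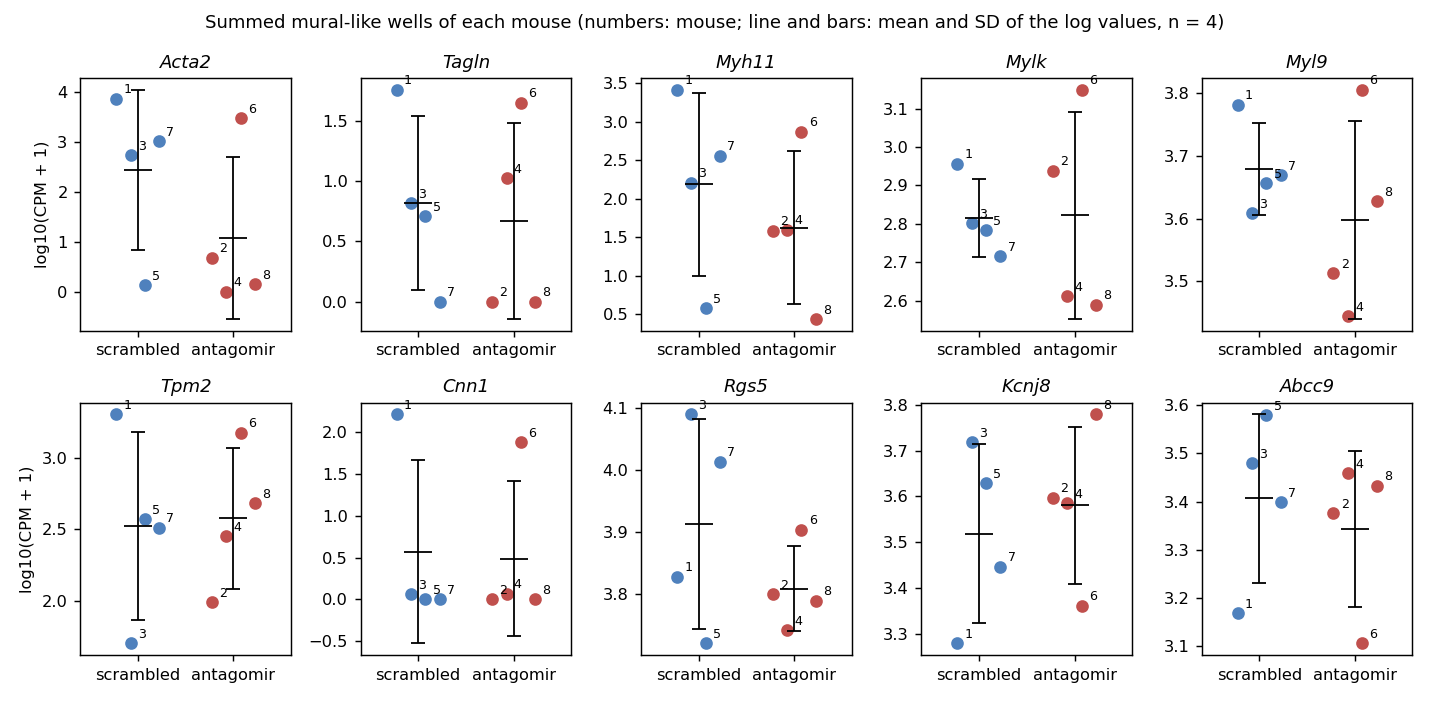
Level of each gene in the summed mural-like wells of each mouse, as log10(CPM + 1), by treatment; points are mice with their number, and the line and bars give the mean and SD of the log values (n = 4). Vertical axes differ between panels. Mice 1 and 6 are the highest of their group in every contractile panel and the lowest of their group for Kcnj8 and Abcc9.

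The same mice were lowest in the channel genes. In mural-like wells Kcnj8 was at 1898, 5237, 4254 and 2796 CPM in the scrambled and 3957, 3847, 2294 and 6022 in the antagomir mice (log2 difference 0.15, SE 0.35). Abcc9 was at 1474, 3019, 3792 and 2501 against 2373, 2879, 1274 and 2711 CPM (-0.25, SE 0.35). Mouse 1 and mouse 6 had the lowest values of their groups for both genes. Rgs5 was at 6738, 12300, 5262 and 10322 against 6320, 5531, 8021 and 6167 CPM (-0.38, SE 0.28), with mouse 6 the highest of the antagomir mice. edgeR called 0 of 6788 genes in mural-like wells (0%), while 61 were under a p of 0.05 without adjustment, 24 with a positive difference. DESeq2 called 22, and edgeR without a filter on low counts 4, none of them a member. The treatments did not overlap for 161 genes (2.37%), and for 0 of the 10 members, all of whose adjusted p-values, where tested, were 1.00.

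Co-detection of the 2 sets did not differ between treatments beyond the spread between mice. Acta2 and Rgs5 were both detected in 23.1%, 10%, 0% and 33.3% of the mural-like wells of the scrambled mice 1, 3, 5 and 7, and in 14.3%, 0%, 42.9% and 0% of those of the antagomir mice 2, 4, 6 and 8. The means were 16.6% ± 14.6 and 14.3% ± 20.2 (SD, n = 4 each, exact two-sided permutation p = 0.914, adjusted over 2 tests 0.914). At least 4 contractile genes together with at least 1 pericyte gene were found in 7 of 14 wells of mouse 6, in 2 of 13 of mouse 1 and in at most 1 well of every other mouse. Kcnj8 and Abcc9 were both detected in 53.8% of the wells of mouse 1, 57.1% of mouse 6 and 66.7% to 100% of the other 6. The groups overlapped in each of these shares, and each mouse rested on 6 to 14 wells with median depths of 268051 to 759656 counts.

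Other genes of the same pathways gave 0 calls in either comparison. Of 13 tested genes of the contractile apparatus other than the members, 6 had a positive and 7 a negative log2 difference in all kept wells, with a median of -0.06 against 0.00 for all genes tested. The smallest unadjusted p in each direction by edgeR was that of Tagln2, with a log2 difference of 0.32, and that of Csrp1, with a log2 difference of -0.25. Values in brackets after gene names below are log2 differences. The 3 tested genes of control by serum response factor and myocardin had a median of -0.10 (Mkl1 0.29, Mkl2 -0.13). The 8 tested ion channel and cyclic GMP genes had a median of -0.20, with the calcium channel gene Cacna1c at 0.53. Pde5a, the phosphodiesterase that degrades cyclic GMP, averaged 3.23 ± 2.44 CPM (SD, n = 4) in antagomir mice and 17.7 ± 9.90 in scrambled mice (log2 difference -2.45, edgeR unadjusted p = 0.0197, adjusted p = 1.00). Abcc8, the receptor subunit of the pancreatic and neuronal channel, had a log2 difference of 0.36. The list of 12 other pericyte genes is the same as the 12 mural markers that named the mural-like wells. Their median was -0.36, 9 of them negative, with Higd1b at 0.22 and Atp13a5 at -0.62.

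In mural-like wells the same 12 mural markers had a median log2 difference of -0.29 against -0.03 for all genes tested, with Higd1b at 0.52 and Atp13a5 at -0.44. The 11 tested contractile genes had a median of -0.14 (Tagln2 0.67, Actn1 -4.90) and the 3 genes of serum response factor control 0.13 (Srf 0.57, Mkl2 -1.90). Actn1 averaged 0.943 ± 1.42 CPM in antagomir mice and 29.6 ± 35.7 in scrambled mice (SE of the log2 difference 2.64). It was detected in 1 of the 8 Myocd-led and 3 of the other 74 wells. The SE was 2.41 for Srf and 2.62 for Mkl2, so these 3 differences are poorly determined. The 7 ion channel and cyclic GMP genes had a median of -0.15, with Cacna1c at 0.94. Gucy1a3, a subunit of the nitric oxide receptor guanylate cyclase, averaged 405 ± 227 CPM in antagomir mice and 1069 ± 236 in scrambled mice (-1.36, edgeR unadjusted p = 0.0394, adjusted p = 1.00). None of these genes passed the adjusted threshold.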

How the data were processed

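Per the series' design text, 96 nestin-GFP+ cells were sorted per mouse, and per the labels' protocols they were made into Smart-seq2 libraries with oligo-dT primers. The deposited values are unnormalized read counts for 31557 gene symbols, and a second table assigns each well to a mouse, a treatment, a day of sorting and a pool. Per the submitters' processing notes, the tools were STAR 2.5.2, featureCounts 1.5.1 of Subread, FastQC and Seurat 2.3.1, with build mm10. The sources used here state neither the annotation release nor the strand setting. Because the labels name 2 samples per treatment and do not link them to animals, the mouse of the well table served as replicate (4 per treatment), and p-values measure the spread between these mice.

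The 10 genes, the markers and the pathway lists were chosen with earlier results of these data known. Wells with under 500 (36) or over 6000 detected genes (16) were left out. The rest were scaled to 10000 counts, logged and clustered without the 10 genes with scanpy 1.11.5 (2000 variable genes, 20 components, 15 neighbours, Leiden resolution 1). A cluster was named with at least 3 markers in 25% or more of its wells. No doublet caller was run, and the numbers of mural-like wells with markers of other types are given instead. Of 12 mural, 12 endothelial, 12 oligodendrocyte, 8 precursor, 14 RGL or astrocyte, 9 neuroblast, 8 neuron, 8 microglia, 8 fibroblast, 5 blood and 3 ependymal markers, 12, 8, 2, 1, 7, 2, 1, 2, 5, 0 and 1 were in at least 1 mural-like well. Detection means 10 or more counts, and CPM are counts scaled to 1 common total per well or per sum of wells.

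Counts were summed per mouse and tested with edgeR 4.0.16 in R 4.3.3 (filterByExpr, TMM, quasi-likelihood test, Benjamini-Hochberg over all genes tested). DESeq2 1.42.0 and limma 3.58.1 (pseudocount 1) were alternatives. The code was tested on simulated data. Shares were compared over mice by exact permutation tests (scipy). Classes come from clusters of the same wells, so values by class were not tested. Each mouse of one treatment shared its sort day and pool with 1 mouse of the other, by the deposited well table. The correlation of their deviations from the group means was 0.03 to 0.37 over the 4 pairs in all kept wells and 0.01 to 0.04 in mural-like wells. Named were all 10 genes, the gene of smallest p in each direction of each pathway list, since none passed an adjusted p of 0.05, and the 5 genes most correlated with Acta2 and with Rgs5. Genes outside this rule that are named as leading a cluster, or as markers, were chosen after their values were seen. Mrtfa, Mrtfb, Gucy1a1 and Gucy1b1 were read under their older symbols, and Tmem212 was not used. One pathway list and 1 gene that the naming rule gave are not reported here. Coordinates are from GENCODE M21 and promoter windows from RefSeq.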

Additional observations from a re-analysis of the deposited data

Results flagged for a closer look

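Within the groups of 4 mice, 17 of 44 groups had a mouse whose gap to the next was over Dixon's 95% limit. Chance gives about 1 in 20 only where values are normally distributed. The CPM were skewed, as for Acta2 in mural-like wells of the antagomir mice (2998 in mouse 6, 3.83 in the next). The rate by chance is therefore not known here, and the 17 groups are a description. The highest mouse was mouse 1 in each such scrambled group and mouse 6 in each such antagomir group. In all kept wells these were Acta2 at 866 CPM in the scrambled and 476 in the antagomir mice, Tpm2 at 240.4 and 242, Cnn1 at 19.4 and 12.02, Tagln at 6.64 and Myh11 at 304 in the scrambled mice, and Mylk at 224 in the antagomir mice. In mural-like wells they were Acta2 at 7291 and 2998, Myh11 at 2568 and 733, Cnn1 at 164 and 75.7 in the scrambled and antagomir mice, and Tagln at 55.8 and Tpm2 at 2011 in the scrambled mice. The 8 wells of the Myocd-led cluster came from mouse 1 (4), mouse 6 (3) and mouse 3 (1), and the genes share these wells, so the groups set apart are not independent of one another. No pericyte gene and no share of wells was set apart in this way.

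The 16 wells left out for over 6000 detected genes also held the genes. They numbered 2 for every mouse and had 9848 to 11673 detected genes, against at most 5625 in a kept well. Rgs5 was in 15 of the 16, Myl9 in 14, Mylk in 13, Kcnj8 in 12, Abcc9 and Tpm2 in 11, Myh11 in 8, Acta2 in 6, Tagln in 3 and Cnn1 in 2. In 15 of them at least 3 endothelial, 3 oligodendrocyte and 3 RGL or astrocyte markers were found together, a combination found in 0 of the 716 kept wells. The labels used here do not say what these wells hold. Of the 36 wells under 500 genes, 3 held Rgs5.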

How the results depend on the processing

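No member passed an adjusted p of 0.05 under any alternative. Calls over all genes moved from 0 to 10 (all kept wells) and 22 (mural-like wells) with DESeq2, and to 4 in mural-like wells without a filter on low counts. The causes were not tested. With a replicate block for the mice that shared day and pool, both counts stayed at 0, and the log2 difference turned for Mylk to -0.30 and Tpm2 to 0.39 in all kept wells and for Tagln to 0.16 and Tpm2 to 0.74 in mural-like wells; it changed no call. Acta2 then was -4.76 and -10.14. With limma on mean log2 values the sign turned for Myl9 (0.16), Tpm2 (0.18), Rgs5 (0.30) and Kcnj8 (0.081), and without limits on detected genes for Tagln (-0.0018) and Tpm2 (0.016). Without the Myocd-led wells, a choice made after the data were seen, Tpm2 was 0.52 in mural-like wells. Leaving out 1 mouse at a time gave, in all kept wells, -5.81 to 1.54 for Acta2, -1.86 to 2.10 for Tagln, -2.42 to 1.596 for Myh11, -0.90 to 0.41 for Mylk, -1.09 to 0.037 for Myl9, -1.72 to 1.53 for Tpm2 and -0.66 to 0.17 for Rgs5. In mural-like wells it gave -10.73 to 0.81 for Acta2, -2.55 to 2.11 for Tagln, -5.04 to 0.50 for Myh11, -0.34 to 0.48 for Mylk, -1.47 to 1.37 for Tpm2 and -0.058 to 0.40 for Kcnj8. The share of mural-like wells differed by -1.11 to 1.603 percentage points (0.339 with all mice). The share with both Acta2 and Rgs5 differed by -11.8 to 3.26 points (-2.32 with all mice), and by 1.29 after thinning.

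The detection shares of the 10 genes moved by less than 1 SD over mice in each of the 90 recomputations, but that SD is wide (for Acta2 18.2 points around 18.3%). Some of the 90 could not move. Clusters made with the 10 genes and Leiden resolution 2 each gave the same 82 mural-like wells. A rule that counted markers in each well gave 83 wells, which held all 82. Without mice 1 and 6 the share with at least 4 contractile genes and a pericyte gene was 9.09% (17.1% with all mice), and without the Myocd-led wells that with Acta2 was 9.46%. Among wells with 6 or 7 contractile genes Abcc9 stayed at 0 wells at 1 or more counts (9 wells), at 50 or more (6 wells) and after thinning (8 wells), settings added after the data were seen. Without mice 1 and 6, 1 such well remained, which held Kcnj8 and not Abcc9, so this description rests on those 2 mice. Depth limits what a 0 in a well means, and 4 mice per group with 6 to 14 mural-like wells each limit the treatment comparison: the 95% interval of the Acta2 log2 difference ran from -6.49 to 3.35 in mural-like wells.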

Other observations

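Other genes of the contractile pathway were described in the 8 wells of the Myocd-led cluster and the other 74 mural-like wells, with no test, since the cluster comes from the same wells and was chosen after its values were seen. Of 14 further genes of the contractile apparatus, 11 were detected in at least 50% of the 8 wells and 6 in at least 50% of the 74. The share over all genes was not computed, so such counts have no background here. Wells with 6 or 7 contractile genes, 7 of them in this cluster, had a median of 2750 detected genes, against 1978 in all mural-like wells. Of the 14, 12 had a larger share in the 8 wells than in the 74. Lmod1, leiomodin, which nucleates actin filaments in smooth muscle, was in 7 of 8 and 2 of 74 wells, and Csrp1 in 5 and 3. Others were rare in both sets: Actg2 was in 0 of 8 and 1 of 74 wells, Actn1 in 1 and 3, and Synpo2 in 2 and 2. Tagln2 was in 7 and 56 wells, with the lower median in the 8 (351 against 634 CPM). Flna, the actin cross-linker filamin A, was in 8 of 8 and 34 of 74 wells with medians of 2706 and 6.60 CPM, while Cald1, caldesmon, was in all wells of both sets (2813 and 3310 CPM). Ppp1r12b, a regulatory subunit of myosin phosphatase, was in 8 of 8 and 13 of 74. It is named because its levels ran with those of Acta2, and the other genes of its pathway list are not given here. Pln, which encodes phospholamban, the brake on the calcium pump, was in 3 of 8 and 0 of 74 wells.

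Of 9 genes of ion channels and cyclic GMP relaxation in the table, again without a share over all genes, 7 were in at least 50% of the 8 wells. Only 2 were in at least 50% of the 74. These 2 were Gucy1a3, in 7 of 8 and 57 of 74 wells, and Gucy1b3, in 6 and 62, the subunits of the nitric oxide receptor. Pde5a was in 7 of 8 and 17 of 74 wells. Kcnj11 and Abcc8, the subunits of the other ATP-sensitive potassium channel, reached 10 counts in 0 of the 82 mural-like wells. Des, which encodes desmin, was in 5 of 8 and 17 of 74 wells.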
